A study of Homo sapiens with 16 samples.

Results

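This account follows 10 genes of the AP-1 and immediate early group in NOMO-1 cells, a human line from acute monocytic leukaemia. They were chosen by name from the table of 26830 gene entries: the Fos subunit genes FOS, FOSB and FOSL2, the Jun subunit genes JUN, JUNB and JUND, the transcription factor gene EGR1, the early response genes IER2 and IER3, and the phosphatase gene DUSP1. All 10 had an entry and all 10 passed the filter of at least 1 TPM in at least 3 libraries, as did 14951 entries in all. TPM is a relative transcript abundance per unit of transcript length, scaled to the same total in each library, so levels can be set side by side between genes.

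The 16 libraries of poly(A) RNA came from 5 groups of the same unmodified or infected line. In the drug experiment, treatment lasted 72 h: 4 cultures received DMSO, 3 received CS1 at 100 nM and 3 received CS2 at 500 nM. Both compounds were given as inhibitors of FTO, an RNA demethylase acting on m6A. The labels name them only CS1 and CS2; in the published literature these names stand for bisantrene and brequinar, the latter also known as an inhibitor of pyrimidine synthesis. Other NOMO-1 cells were infected with a lentivirus carrying a hairpin against FTO (shFTO, n = 3) or the control hairpin (shNS, n = 3) and kept in 1 µg/ml puromycin for 1 week. The hairpin cells are a drug-selected population. The 2 control groups therefore differ in infection, selection and culture. Replicates are called biological in the series text.

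AP-1 is a dimer of basic leucine zipper proteins, either a Jun protein with another Jun protein or a Jun protein with a Fos protein, which binds short sites in promoters and enhancers. Many of its genes, with EGR1, IER2, IER3 and DUSP1, are classical immediate early genes, while JUND is usually constitutive. Growth factors, stress and phorbol esters switch immediate early genes on through MAP kinases without new protein synthesis. Their messenger RNAs are mostly short-lived, and DUSP1 then closes the loop by dephosphorylating the kinases. In the monocyte lineage AP-1 factors and EGR1 are known for rising during macrophage differentiation.

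FTO itself measured 7.99 ± 0.445 TPM (SD, n = 3) in shFTO and 31.6 ± 1.03 TPM in shNS, and values after ± are SDs throughout. Each library had 18675 to 19358 entries above 0, and the depth of the libraries is unknown because TPM keep no read counts. CD33, SPI1 and CD68, which mark the myeloid lineage, were above 65 TPM in every library, while the monocyte receptor CD14 stayed between 0.08 and 0.98 TPM. CD3E and HBA1, of lymphocytes and red cells, were at 0 in all 16 libraries. Since these are bulk samples, a change in the share of cells that express a gene and a change in RNA per cell cannot be told apart. Differences are given as log2 of TPM + 1, a scale that makes changes of low genes look smaller. Tests are limma's, with Benjamini-Hochberg adjustment over every tested gene. The median difference over all tested genes was 0.09 with CS1, 0.20 with CS2 and 0.07 with the FTO hairpin.

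All 10 genes were higher with CS2 than with DMSO, where 49.5% of all tested genes passed upwards and 24.6% downwards. With CS1 7 passed upwards and 0 downwards, where 37.5% of all tested genes passed upwards and 14.3% downwards. The FTO hairpin gave 3 upwards and 3 downwards, beside 31.9% and 24.5% of all tested genes, so its counts were near the background. On the log2(TPM + 1) scale, changes of at least 2-fold upwards were met by 7 genes with CS2, 3 with CS1 and 2 with the hairpin. Of all tested genes 10.2%, 2.83% and 2.32% met them. The hairpin genes were FOS and IER3. Without the 3 libraries that stood apart, described next, both were under 2-fold on that scale (0.86 and 0.85), leaving 0 genes. That scale makes changes of low genes look smaller. The shFTO library left out was the highest of its group for both genes, so this loss is partly built in. The library values did not overlap with those of the controls for 10 genes with CS2 and for 7 with CS1, all of them higher, where 48.0% and 38.2% of all tested genes lay apart upwards. With the hairpin 3 genes lay apart upwards and 4 downwards, beside 38.3% and 26.4%. The median change of the 10 genes was 1.31 with CS2, 0.49 with CS1 and -0.14 with the hairpin.

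**Figure D1:**
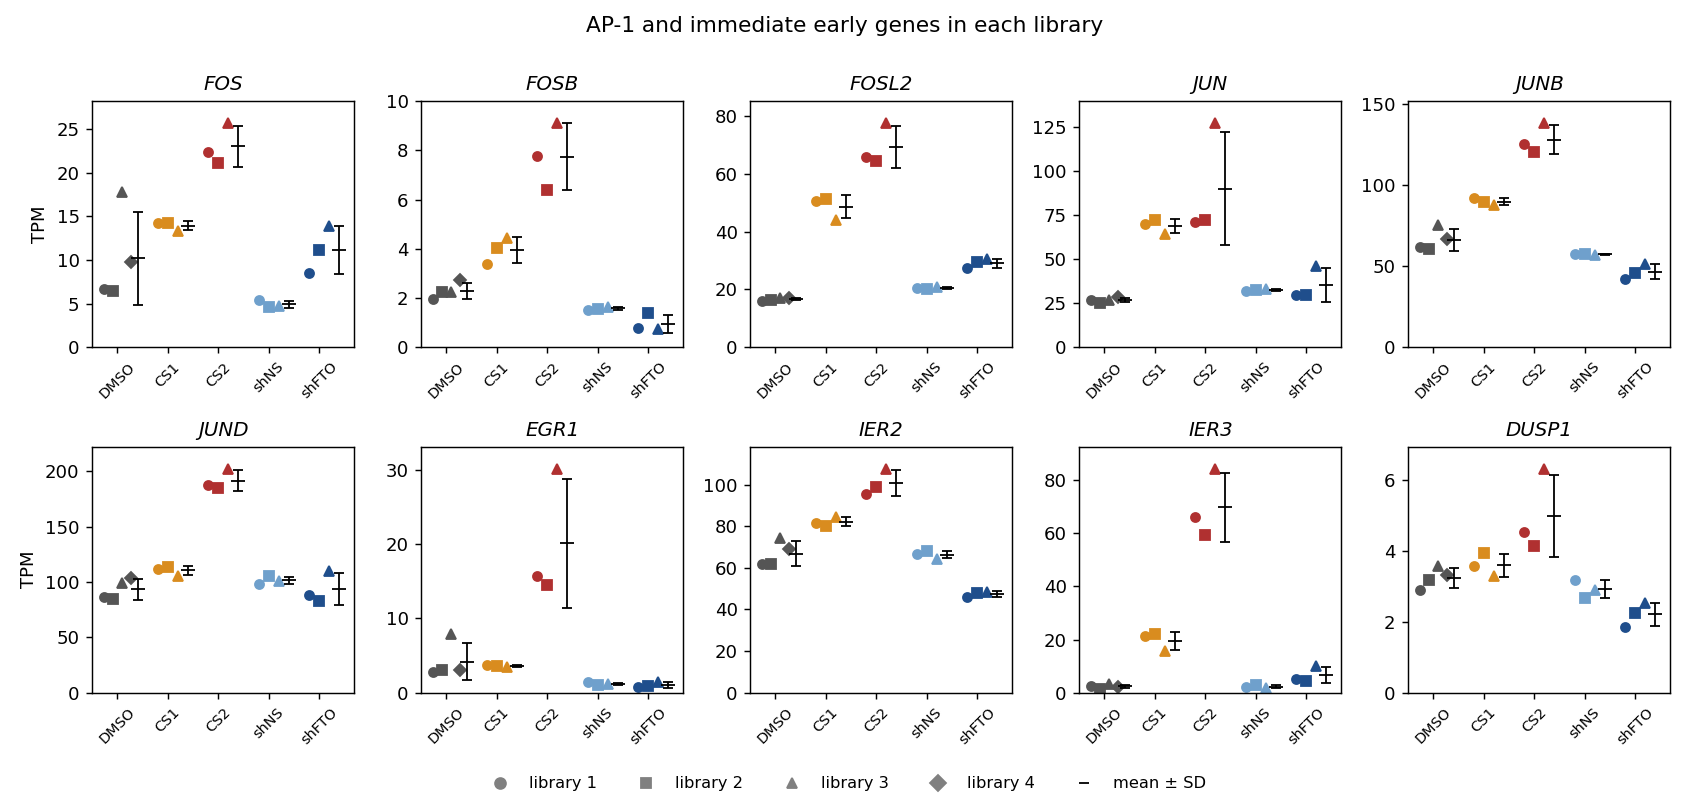
TPM (vertical axes, from 0) of each of the 10 genes in each library, grouped by treatment; symbols give the library number and the bar the group mean ± SD. Every gene is highest in CS2, and the CS2 library numbered 3 is above the other CS2 libraries for all 10 genes.

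Several libraries stood apart for these genes. The CS2 library numbered 3 was the highest of its group for 10 of the 10 genes, where it was the highest for 26.3% of all tested genes. The shFTO library numbered 3 was the highest for 9 of 10 (44.6% of all tested genes) and the DMSO library numbered 3 for 6 of 10 (19.7%). Within groups FOS, EGR1, IER3 and JUN had SDs of 0.362, 0.402, 0.332 and 0.259 on the log2 scale, against a median of 0.0972 over all tested genes. For FOSL2 and IER2 the SDs were 0.0887 and 0.0822, below that median. Calls that changed when these 3 libraries were left out are given below, a setting chosen after their values were seen. The libraries were picked for high values of these same genes. Leaving them out therefore lowers the means of their groups for most of the genes and narrows the spread. Calls that newly pass in that fit are partly built in by this choice and are not further support. The same holds for hairpin rises that became smaller in it. In that fit 10 of the genes passed upwards with CS2 and 9 with CS1, where 50.4% and 38.1% of all tested genes did. The hairpin gave 3 upwards and 5 downwards, beside 32.0% and 26.4%.

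**Figure D2:**
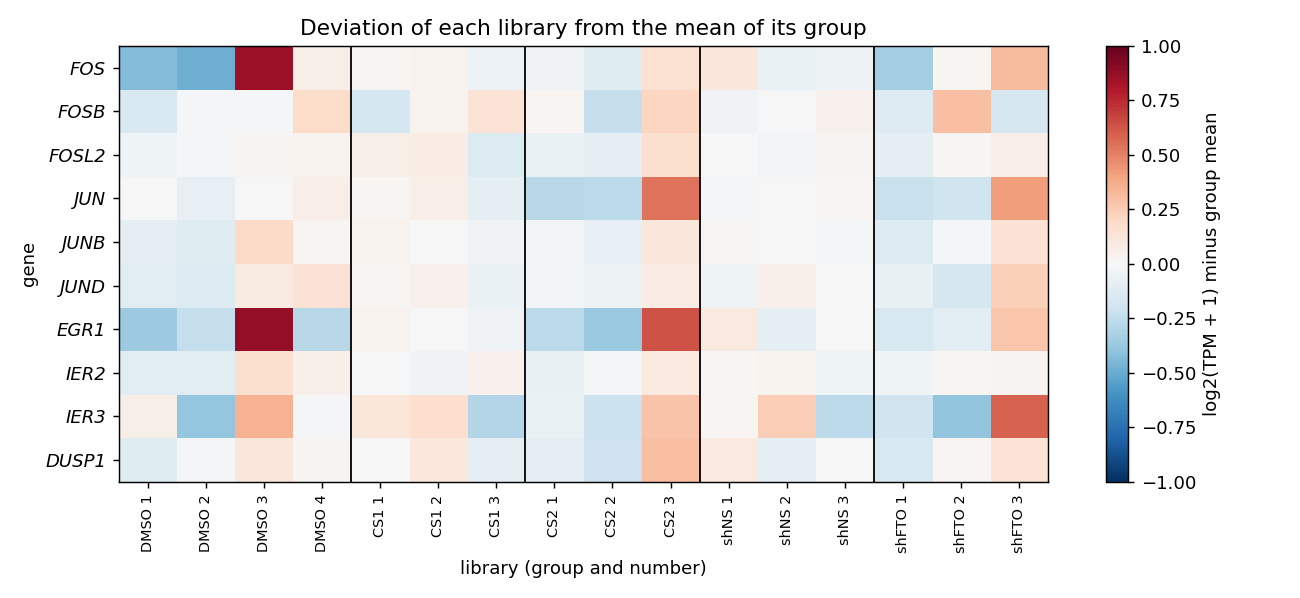
Deviation of log2(TPM + 1) from the group mean for each gene (rows) and library (columns, groups separated by lines); red is above and blue below the mean. The darkest cells are FOS and EGR1 in the DMSO library numbered 3, at 0.86 and 0.88.

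Among the Fos subunits FOSL2 was the most abundant in every group. FOSL2 encodes Fra-2, a Fos-related subunit that lacks the strong activation domain of c-Fos. Its levels in the DMSO libraries were 16.13, 16.45, 16.99 and 17.14 TPM. They were 50.54, 51.29 and 44.15 TPM with CS1 and 65.83, 64.35 and 77.41 TPM with CS2. The 3 groups did not overlap, and the spread within each was small beside the gaps between them. FOSL2 rose by 1.49 with CS1 (SE 0.0647, limma adjusted p = 2.36e-10) and by 1.99 with CS2 (SE 0.0647, limma adjusted p = 1.06e-12). In the hairpin experiment it went from 20.50, 20.10 and 20.92 TPM in shNS to 27.26, 29.48 and 30.38 TPM in shFTO. This smaller rise also passed (0.48, SE 0.0692, limma adjusted p = 3.04e-05).

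FOS, the gene of c-Fos, was more variable. The DMSO libraries held 6.68, 6.40, 17.80 and 9.79 TPM, the CS1 libraries 14.18, 14.28 and 13.37 TPM, and the CS2 libraries 22.38, 21.09 and 25.65 TPM. The CS1 values lay inside the DMSO range, because of the 17.80 TPM of the library numbered 3, and the CS2 values lay above it. FOS rose with CS2 (1.21, SE 0.244, limma adjusted p = 0.000365) and did not pass with CS1 (0.53, limma adjusted p = 0.0851). Without the DMSO library numbered 3 the CS1 value was 0.81 and passed (limma adjusted p = 0.000673). With the FTO hairpin FOS rose from 5.36, 4.62 and 4.68 TPM to 8.46, 11.09 and 13.92 TPM (1.02, SE 0.261, limma adjusted p = 0.00366), and the value was 0.86 without the libraries that stood apart. The shFTO range overlapped that of the DMSO libraries.

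FOSB was the scarcest Fos subunit. It measured between 1.96 and 2.74 TPM in DMSO, 3.38, 4.05 and 4.44 TPM with CS1 and 7.78, 6.38 and 9.10 TPM with CS2. It rose with CS1 (0.59, SE 0.13, limma adjusted p = 0.00153) and with CS2 (1.40, SE 0.13, limma adjusted p = 1.14e-07). In shFTO it was at 0.77, 1.38 and 0.72 TPM, below the 1.51, 1.56 and 1.65 TPM of shNS. That fall passed narrowly (-0.41, SE 0.139, limma adjusted p = 0.0207). It no longer passed without the shFTO library numbered 3 (-0.33, limma adjusted p = 0.0838), without the shFTO library numbered 1 (-0.35, limma adjusted p = 0.0795) or without the shNS library numbered 3 (-0.39, limma adjusted p = 0.0584).

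Of the Jun subunits JUN, the gene of c-Jun, had the largest log2 changes with both compounds, but not with the hairpin. JUN was at 26.85, 25.27, 26.89 and 28.15 TPM in DMSO, while CS1 libraries held 69.58, 71.77 and 64.27 TPM and CS2 libraries 71.10, 71.77 and 126.78 TPM. Apart from the last library, CS1 and CS2 held similar levels. JUN rose by 1.32 with CS1 (SE 0.174, limma adjusted p = 1.5e-05) and by 1.66 with CS2 (SE 0.174, limma adjusted p = 4.56e-07). The difference between the compounds was -0.33 for CS1 minus CS2 (95% interval -0.73 to 0.06, limma adjusted p = 0.128), and -0.06 without the libraries that stood apart. With the hairpin, JUN was at 29.34, 29.75 and 46.22 TPM against 31.80, 32.16 and 32.79 TPM in shNS. These groups overlapped and the change did not pass (0.09, 95% interval -0.31 to 0.49, limma adjusted p = 0.711). Its sign was negative without the shFTO library numbered 3 (-0.12).

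JUNB encodes a Jun protein that often restrains c-Jun. It was at 61.61, 60.46, 75.47 and 66.94 TPM in DMSO, 92.31, 89.55 and 87.97 TPM with CS1 and 125.77, 120.76 and 138.30 TPM with CS2. Both rises passed, 0.44 with CS1 (SE 0.0739, limma adjusted p = 0.000142) and 0.95 with CS2 (SE 0.0739, limma adjusted p = 1.49e-08). In shFTO it was lower, at 42.24, 46.06 and 51.44 TPM against 57.66, 57.29 and 56.95 TPM in shNS (-0.30, SE 0.079, limma adjusted p = 0.00485).

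JUND, whose protein is usually the constitutive Jun subunit, was the most abundant of the 10 genes in every group. It went from 86.48, 84.62, 99.08 and 103.18 TPM in DMSO to 187.56, 185.03 and 202.11 TPM with CS2 (1.03, SE 0.0852, limma adjusted p = 2.85e-08). With CS1 it reached 111.96, 113.87 and 105.36 TPM. That small rise passed (0.24, limma adjusted p = 0.0261), but not with median-of-ratios scaling of the libraries (0.12, limma adjusted p = 0.292) or quantile normalization (0.13, limma adjusted p = 0.196). It also missed the threshold without the library numbered 1 or 2 of DMSO or of CS1. The hairpin groups, 88.55, 82.81 and 109.90 TPM in shFTO and 98.15, 104.97 and 101.12 TPM in shNS, overlapped (-0.12, limma adjusted p = 0.272). Without the shFTO library numbered 3 JUND passed downwards (-0.24, limma adjusted p = 0.0147).

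Summed over FOS, FOSB and FOSL2, Fos transcripts were at 29.1 ± 5.72 TPM in DMSO, 66.6 ± 4.06 with CS1 and 100 ± 10.8 with CS2. Jun transcripts were at 186 ± 15.9, 269 ± 9.78 and 410 ± 49.9 TPM. The Fos to Jun ratio was 0.156 ± 0.0191 in DMSO, 0.248 ± 0.00611 with CS1 and 0.244 ± 0.00513 with CS2. The ratio was 0.141 ± 0.00569 in shNS and 0.236 ± 0.0246 in shFTO. In the hairpin cells the Jun sum stood at 191 ± 3.40 TPM in shNS and 175 ± 27.9 in shFTO, and the Fos sum at 27 ± 0.598 and 41.2 ± 4.32. JUN made up 14.4% ± 0.86 of Jun transcripts in DMSO, 25.5% ± 0.603 with CS1 and 21.5% ± 4.83 with CS2. These sums leave out FOSL1, a further Fos-related subunit gene. With FOSL1 added, a choice made after its values were seen, the ratio was 0.233 ± 0.0164 in DMSO, 0.294 ± 0.00398 with CS1, 0.261 ± 0.00548 with CS2, 0.176 ± 0.00549 in shNS and 0.263 ± 0.0211 in shFTO, so the gap between CS2 and DMSO was smaller. No test was made on these sums and shares.

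**Figure D3:**
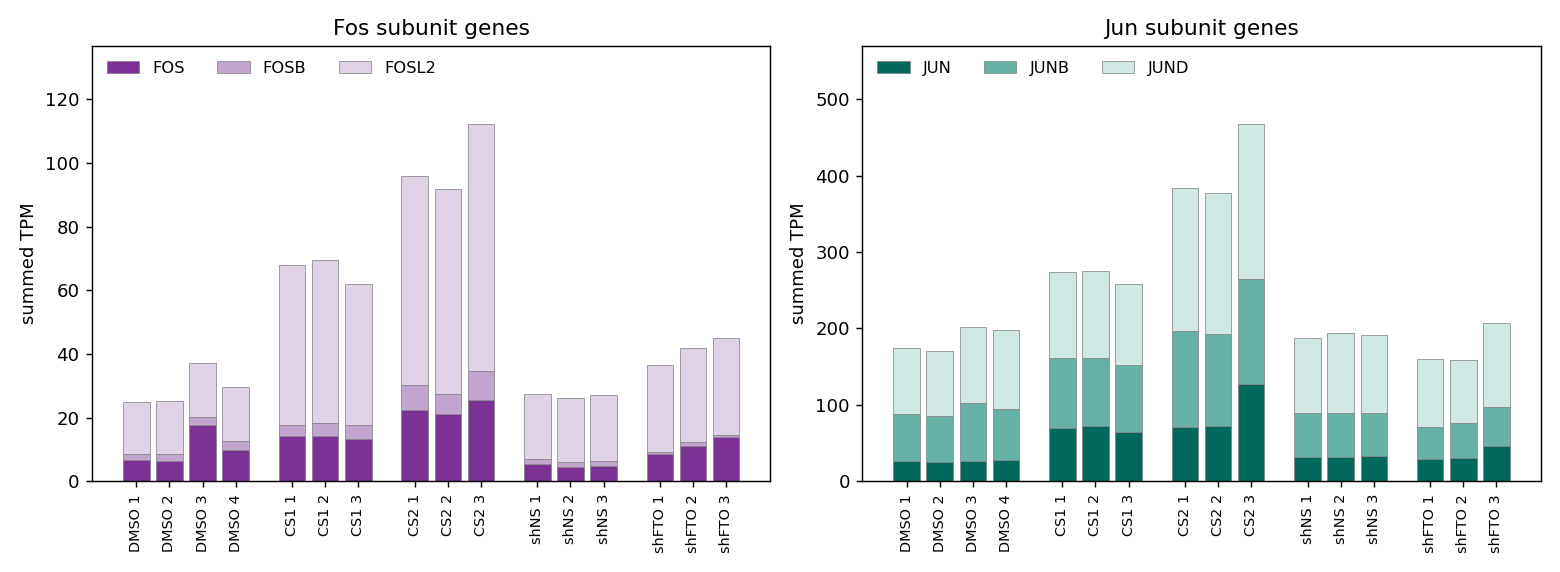
Summed TPM (vertical axes, from 0) of the 3 Fos and the 3 Jun subunit genes in each library, stacked by gene. FOSL2 is the largest part of the Fos sum in every library except the DMSO library numbered 3, where FOS is, and JUND is the largest part of the Jun sum in every library.

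EGR1, a zinc finger factor that binds GC-rich sites, separated the compounds. It was at 2.76, 3.11, 7.88 and 2.99 TPM in DMSO, while CS1 libraries held 3.69, 3.59 and 3.49 TPM and CS2 libraries 15.64, 14.49 and 30.10 TPM. The CS1 libraries lay within the DMSO range and the CS2 libraries above both groups. EGR1 rose with CS2 (2.05, SE 0.273, limma adjusted p = 6.07e-06) and did not pass with CS1 (-0.08, 95% interval -0.66 to 0.51, limma adjusted p = 0.837). Without the DMSO library numbered 3 the CS1 value was positive (0.22, limma adjusted p = 0.406), and without all of the libraries that stood apart it passed (0.22, limma adjusted p = 0.0265). The hairpin cells held little EGR1, 1.37, 1.09 and 1.21 TPM in shNS and 0.79, 0.85 and 1.42 TPM in shFTO (-0.15, limma adjusted p = 0.682). It passed downwards there without all of the libraries that stood apart (-0.29, limma adjusted p = 0.00998).

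The promoter of EGR1 is known for serum response elements. Its sequence is shown because EGR1 alone among the 9 genes searched had a CArG box match within the short window used. Promoters were taken from RefSeq (GRCh38.p14), 250 bases before to 50 after the start, for 9 of the 10 genes. They were searched on both strands for the CArG box bound by SRF, the AP-1 site TGANTCA, the cyclic AMP response element TGACGTCA, the EGR site GCGNGGGCG and the E-box CACGTG. Below, capitals mark these matches and each sequence reads 5′ to 3′ on the strand of its gene. The EGR1 stretch (chr5:138465354-138465425, plus strand) holds 2 CArG boxes, 105 and 83 bases before the start, and 1 EGR site lies farther upstream. A CArG box was found in 1.29% of all 35116 promoters. The DUSP1 stretch (chr5:172771278-172771340, minus strand) holds a cyclic AMP response element and an E-box, and the JUND stretch (chr19:18281795-18281842, minus strand) a cyclic AMP response element, a motif found in 1.85% of promoters.
EGR1: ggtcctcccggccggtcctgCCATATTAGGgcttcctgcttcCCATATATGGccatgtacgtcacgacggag
DUSP1: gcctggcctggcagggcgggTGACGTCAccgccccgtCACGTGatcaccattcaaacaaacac
JUND: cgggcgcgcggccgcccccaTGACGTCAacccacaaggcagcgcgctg

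FOSL2 had an AP-1 site just after its start (TGACTCA), a motif of 7.71% of promoters. FOS, FOSB, JUN, JUNB and IER2 had no match to these letters in this window. Sites more than 250 bases before the start were not searched, so these genes may hold such motifs farther upstream. The EGR site was found in 9.43% of promoters and the E-box in 7.26%. These matches describe letters only.

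IER3, an early response gene whose protein modulates survival and NF-kB signalling, had the largest change of the 10. It was at 2.40, 1.5, 3.17 and 2.24 TPM in DMSO, while CS1 libraries held 21.14, 21.91 and 15.63 TPM and CS2 libraries 65.99, 59.22 and 84.20 TPM. The groups were far apart: means were 2.33 ± 0.685 TPM in DMSO, 19.6 ± 3.43 with CS1 and 69.8 ± 12.9 with CS2. The log2 changes were 2.64 (SE 0.224, limma adjusted p = 1.75e-07) and 4.42 (SE 0.224, limma adjusted p = 1.11e-10). IER3 also rose with the hairpin, from 2.3, 2.87 and 1.72 TPM in shNS to 5.30, 4.51 and 9.89 TPM in shFTO (1.15, SE 0.24, limma adjusted p = 0.000828). Without the shFTO, DMSO and CS2 libraries numbered 3 that value was 0.85 (limma adjusted p = 0.00144).

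IER2, a nuclear early response protein, was abundant and had the largest fall of the 10 genes with the hairpin on the log2(TPM + 1) scale. As a ratio of mean TPM in shFTO to shNS, the low gene FOSB fell further (0.608, beside 0.715 for IER2). It was at 61.95, 61.74, 74.54 and 69.21 TPM in DMSO, 81.71, 80.18 and 84.45 TPM with CS1 and 95.61, 99.00 and 107.56 TPM with CS2. Both rises passed (0.30, SE 0.0591, limma adjusted p = 0.000654, and 0.59, SE 0.0591, limma adjusted p = 2.84e-07). The CS1 value missed the threshold with median-of-ratios scaling (0.17, limma adjusted p = 0.0591). With the hairpin IER2 fell, from 66.74, 67.97 and 64.43 TPM to 46.02, 48.03 and 48.29 TPM (-0.48, SE 0.0632, limma adjusted p = 1.42e-05).

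DUSP1, the phosphatase that switches off p38, JNK and ERK, was low throughout. It was at 2.90, 3.19, 3.58 and 3.32 TPM in DMSO and at 3.56, 3.93 and 3.28 TPM with CS1, which overlapped (0.11, 95% interval -0.13 to 0.36, limma adjusted p = 0.436). The sign of the CS1 value was negative with quantile normalization (-0.01). With CS2 it was at 4.53, 4.14 and 6.31 TPM and passed (0.48, SE 0.114, limma adjusted p = 0.00133), but not with quantile normalization (0.27, limma adjusted p = 0.0569). In shFTO it was at 1.86, 2.24 and 2.52 TPM against 3.18, 2.67 and 2.89 TPM in shNS. These groups did not overlap, yet the change missed the threshold (-0.29, 95% interval -0.55 to -0.03, limma adjusted p = 0.0543). It passed without the shFTO library numbered 3 (-0.36, limma adjusted p = 0.0336).

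Short-lived messenger RNAs often carry AU-rich elements built on the pentamer ATTTA in the 3′UTR, the region after the stop codon. One transcript per gene of GENCODE 29 was searched. IER3, FOS and DUSP1 held 6, 5 and 4 pentamers, or 8.14, 6.2 and 5.95 per kb, where 97.8%, 94.6% and 94.0% of 11595 tested genes had a lower density. The median was 1.5 per kb. JUNB had 4 per kb and JUN 2.33. FOSL2 held 9 pentamers in a longer 3′UTR, or 1.85 per kb, with 2 of them within 30 bases. JUND (1.47 per kb), FOSB (1.39) and EGR1 (0.81) lay below the median, and IER2 had 0 pentamers. The 30 bases with the most pentamers in FOS, DUSP1 and IER3 are shown with the pentamers in capitals, as the genes with the highest densities. At least 2 in 30 bases were found in 21.2% of the tested genes.
FOS: aaacgttttattgtgtttttaATTTATTTA
DUSP1: ggctcgagagggctggtccttATTTATTTA
IER3: ttgctcctaattaatATTTAtatgtATTTA

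Of these 3 genes, IER3 rose in all 3 comparisons with a control, FOS with CS2 and the hairpin, and DUSP1 with CS2.

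**Figure D4:**
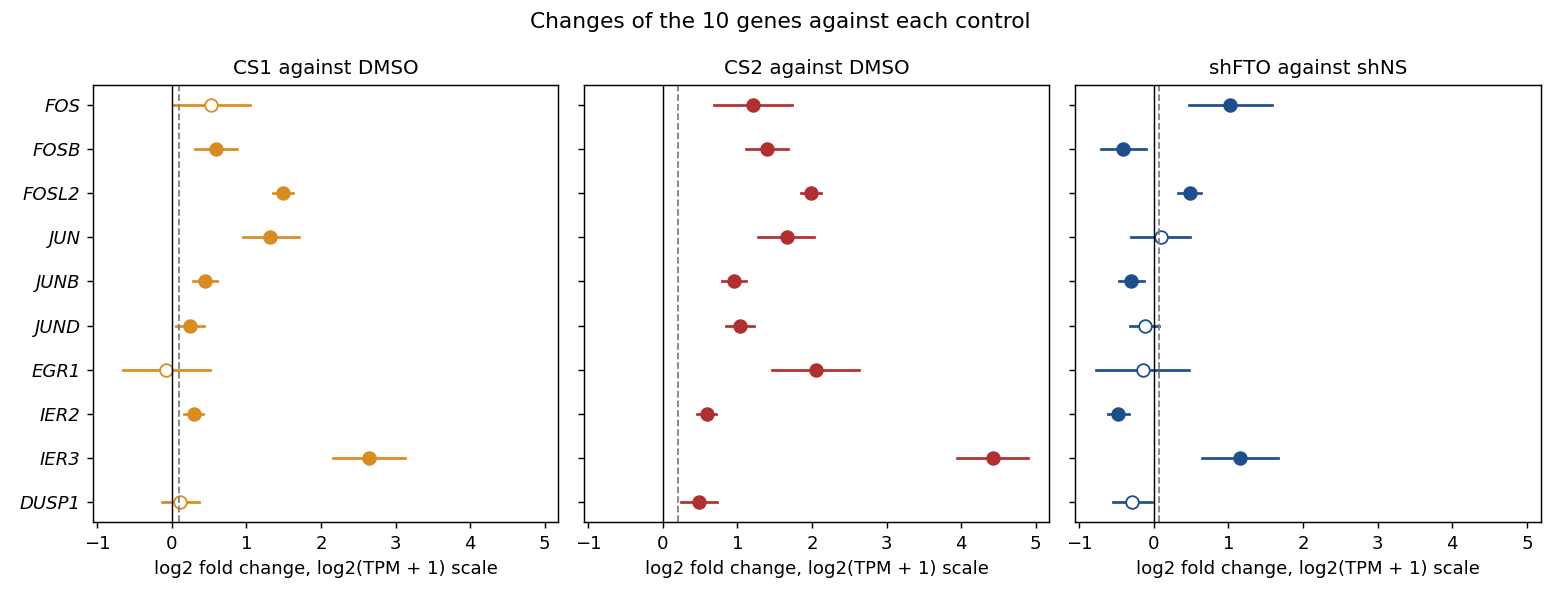
Log2 fold change (horizontal axes, log2(TPM + 1) scale) of each gene against its control with its 95% interval; filled points passed the test, open points did not, and the dashed line is the median of all tested genes. All 10 points are filled and right of 0 with CS2, against 7 with CS1, while the hairpin has 3 filled points on each side.

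CS1 at 100 nM and CS2 at 500 nM were compared directly. The doses differ, so the contrast is between the treatments as given. Of the 10 genes 9 were lower with CS1 and 0 higher, where 40.4% of all tested genes were lower and 26.2% higher. The CS1 libraries lay wholly below the CS2 libraries for the same 9 genes, as for 40.6% of all tested genes. The largest differences were those of EGR1 (-2.12, SE 0.291, limma adjusted p = 1.3e-05) and IER3 (-1.78, SE 0.24, limma adjusted p = 1.07e-05). JUND (-0.79) and FOSB (-0.81) followed, and JUN was the gene that did not pass. The FOS difference (-0.68, limma adjusted p = 0.0317) was near the threshold and missed it with either scaling, without the filter on low values and when any of 5 single libraries was left out. DUSP1 (-0.37, limma adjusted p = 0.0146) missed it in 5 of 13 settings, with limma adjusted p from 0.0556 to 0.0809, among them quantile normalization and the fit without the CS2 library numbered 3 (-0.22).

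The response to each compound was then set against the response to the FTO hairpin, by testing the difference of the 2 log2 changes. With CS1 the response exceeded that to the hairpin for 7 genes, where 31.0% of all tested genes did so. With CS2 it did so for 9 genes, beside 39.8%. Of the 7, JUND (0.37, limma adjusted p = 0.0244) missed the threshold in 6 of 20 settings. Among them were median-of-ratios scaling (0.24, limma adjusted p = 0.138) and quantile normalization (0.21, limma adjusted p = 0.143). In the other direction 0 of the 10 passed in either contrast, where 18.3% and 23.7% of all tested genes did. Differences of at least 2-fold upwards were met by 3 genes with CS1 and 8 with CS2, beside 2.75% and 9.52%. For FOS the response did not differ detectably between CS2 and the hairpin (0.19, 95% interval -0.58 to 0.95, limma adjusted p = 0.677) or between CS1 and the hairpin (-0.50, 95% interval -1.26 to 0.27, limma adjusted p = 0.268). Both intervals are wide. Without the libraries that stood apart the CS2 value was 0.56 and passed (limma adjusted p = 0.0346). For CS1 that fit brought in EGR1 (0.50, limma adjusted p = 0.0023, from 0.07) and DUSP1 (0.51, limma adjusted p = 0.006, from 0.40), giving 9 genes, where 33.2% of all tested genes passed upwards. Both genes were above their group means in the DMSO and shFTO libraries left out. Leaving these out raises the difference by construction, so the count of 9 is not a further result. FOSL2 and IER3 rose in all 3 comparisons, more with each compound than with the hairpin (FOSL2 by 1.01 and 1.5, IER3 by 1.49 and 3.27). FOSB, JUNB and IER2 rose with both compounds and fell with the hairpin. Their differences were 1.00, 0.74 and 0.77 for CS1 and 1.81, 1.25 and 1.06 for CS2, and all 6 passed.

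Genes most like the changed members were sought among 10693 genes, by the root mean square difference of centred log2 values over the 16 libraries. Small values mean like patterns. FOSL2 was closest to CEACAM21 (0.12), the Src family kinase FGR (0.13) and OASL (0.14). JUN was closest to the kinase SGK1 (0.19). IER3 was closest to the haptoglobin gene HP (0.26), which had means of 2.60 TPM in DMSO, 17.3 with CS1, 56.2 with CS2, 2.1 in shNS and 7.13 in shFTO. The next for IER3 was the chemokine gene CXCL8 (0.39). For EGR1 the closest gene, PHLDA2, was farther off (0.43). These differences include the scatter of libraries within groups, for which EGR1 had an SD of 0.402. They do not separate such scatter from an unlike pattern between groups.

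The counts of the related lists stand beside the shares of all tested genes passing upwards and downwards, 49.5% and 24.6% with CS2, 37.5% and 14.3% with CS1, and 31.9% and 24.5% with the hairpin. Of 28 tested other immediate early genes 24 rose and 2 fell with CS2, 21 rose and 2 fell with CS1, and 12 rose and 3 fell with the hairpin. Their medians were 1.28, 0.51 and 0.13. PPP1R15A, which restores translation after stress, rose from 48.9 ± 5.65 TPM in DMSO to 145 ± 2.45 with CS1 and 245 ± 34.1 with CS2. In the hairpin cells it was at 42.0 ± 2.53 TPM in shNS and 81.5 ± 2.85 TPM in shFTO, a rise that also passed. IER5 rose from 32.9 ± 0.657 to 47.9 ± 0.713 and 83.7 ± 2.09 TPM with the compounds. The repressor KLF10 rose with CS1 and CS2, from 22 ± 0.847 to 53.9 ± 3.16 and 65.9 ± 6.14 TPM, and fell with the hairpin, from 23.4 ± 0.832 to 19.3 ± 0.777 TPM. ID1, an inhibitor of helix-loop-helix factors, had the same directions (0.82, 1.79 and -0.45).

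Of 11 tested genes of the AP-1 and related leucine zipper list 8 rose and 2 fell with CS2, 7 rose and 0 fell with CS1, and 5 rose and 5 fell with the hairpin. Their medians were 0.61, 0.39 and 0.23. ATF3, a stress-induced partner of Jun proteins, went from 2.55 ± 0.405 TPM in DMSO to 12.2 ± 1.40 with CS1 and 26.3 ± 4.72 with CS2. FOSL1, the gene of the Fos-related subunit Fra-1, went against FOSL2: it fell with CS2, from 14.3 ± 1.24 to 6.76 ± 0.808 TPM (-0.99, limma adjusted p = 4.08e-05), and with the hairpin (-0.46, limma adjusted p = 0.0315). JDP2, whose protein represses AP-1 sites, rose with the compounds (0.56 and 0.61) and fell with the hairpin from 35.4 ± 1.57 to 15.6 ± 0.815 TPM (-1.13).

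**Figure D5:**
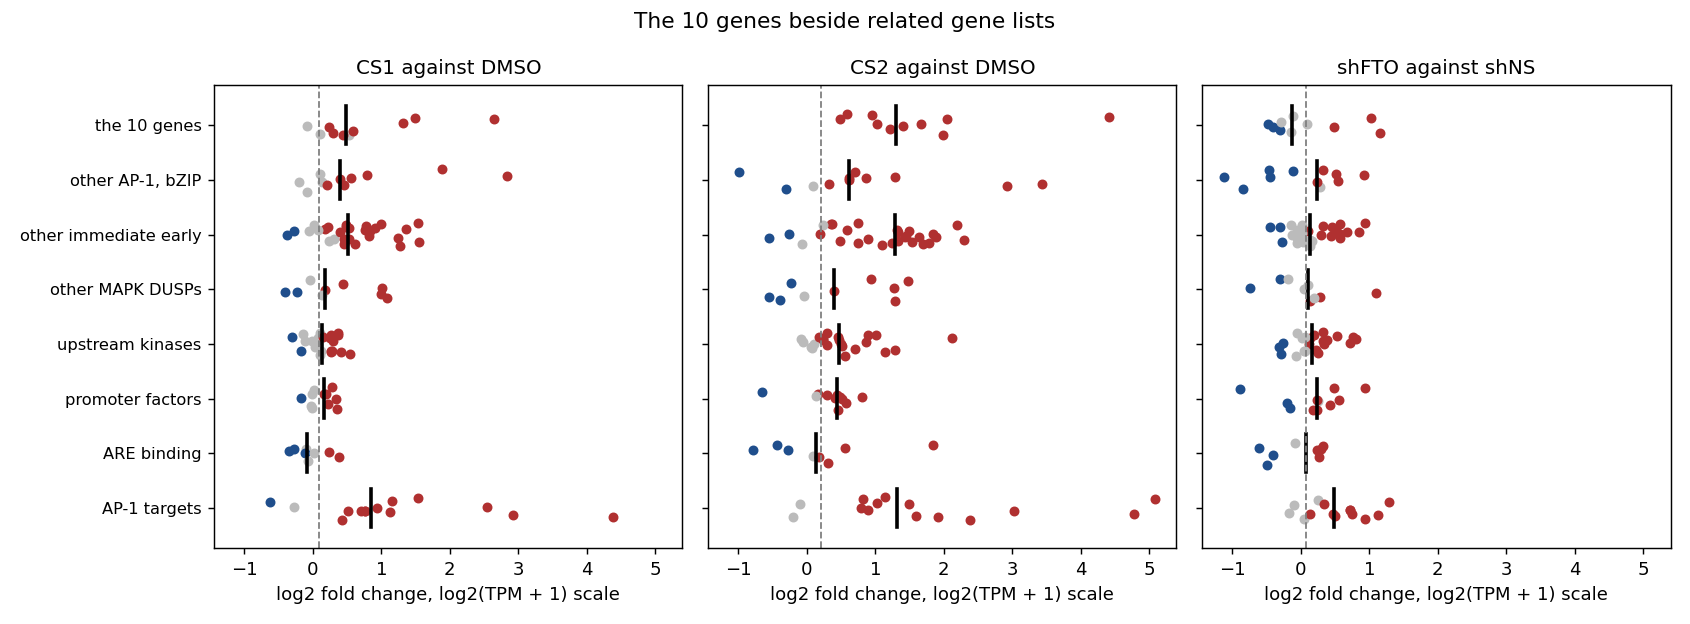
Log2 fold change (horizontal axes) of each tested gene of the 10 and of 7 related lists; red points passed upwards, blue downwards, grey did not pass, the black bar is the median of the list and the dashed line that of all tested genes. The AP-1 targets have medians of 0.85, 1.31 and 0.48.

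Upstream of these genes, of 22 upstream kinases 17 rose and 0 fell with CS2 (median 0.46), 11 rose and 2 fell with CS1 (0.14), and 13 rose and 3 fell with the hairpin (0.16). MAP2K1, the kinase that activates ERK, rose from 50.4 ± 1.19 to 125 ± 5.44 TPM with CS2. Of 11 promoter factors 9 rose and 1 fell with CS2 (median 0.44), 6 rose and 1 fell with CS1 (0.16), and 7 rose and 3 fell with the hairpin (0.24). CREM, a gene of the cyclic AMP response element family, rose with the hairpin (0.93) and fell with CS2 (-0.66). SRF, which binds the CArG box, fell with the hairpin from 54.0 ± 1.46 to 28.7 ± 0.987 TPM (-0.89, limma adjusted p = 1.56e-09). Its values with CS1 (-0.02) and CS2 (0.16, limma adjusted p = 0.00432) were small, and each changed sign under some other settings. Of 9 other MAP kinase phosphatases 5 rose and 3 fell with CS2. DUSP10 rose in all 3 comparisons (1.01, 1.48 and 1.1), and DUSP5 rose with CS2 (1.27) and fell with the hairpin (-0.31). Of 8 proteins that bind AU-rich elements 4 rose and 3 fell with CS2, with ZFP36L1 rising from 4.7 ± 0.114 to 19.5 ± 2.29 TPM.

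Of 14 tested textbook AP-1 targets 12 rose and 0 fell with CS2, 12 rose and 1 fell with CS1, and 10 rose and 0 fell with the hairpin. The collagenase gene MMP1 changed by 4.39, 5.09 and 0.50, CXCL8 by 2.55, 4.78 and 0.75, and the protease inhibitor gene TIMP1 by 0.43, 0.90 and 0.72. PLAUR, the urokinase receptor, rose with CS1 (1.16) and CS2 (1.91) and did not pass with the hairpin (0.05, limma adjusted p = 0.585).

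Most monocytic markers rose with each compound against DMSO, as most of these genes did, and most rose with the hairpin. Whether the changes of the markers and of these genes are linked was not tested. The summed level of the 12 markers lay between 833.9 and 861.1 TPM in DMSO, 1285 and 1325 with CS1, and 1363 and 1404 with CS2. It lay between 1086 and 1118 TPM in shNS and 3447 and 3995 in shFTO, where the 10 genes were mixed. LYZ, a granule and macrophage enzyme, rose by 1.74, 2.06 and 3.76 in the 3 comparisons and made up most of the hairpin gap. Without LYZ the sum lay between 919.9 and 954.9 TPM in shNS and 1398 and 1416 in shFTO. In the drug experiment it then lay between 761.8 and 783.0 TPM in DMSO, 1040 and 1066 with CS1, and 1047 and 1079 with CS2. The 2 compound groups thus overlapped once LYZ was left out. Of 10 tested markers 9 rose and 1 fell with CS1 (median 0.87) and with CS2 (0.86), and 8 rose and 2 fell with the hairpin (0.73). With CS1 against CS2 4 markers were higher and 5 lower, beside 26.2% and 40.4% of all tested genes. Of 9 tested heat shock genes 5 rose and 3 fell with CS2 (median 0.41), 2 rose and 3 fell with CS1 (-0.12), and 0 rose and 8 fell with the hairpin (-0.62). HSPA8 fell in all 3 (-0.55, -1.71 and -0.64), while HSPB1, a small heat shock protein gene, changed by 0.19, 0.78 and -0.33. The part of these changes in the results above was not tested.

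By GENCODE 29 (GRCh38), 4 of the 10 genes, FOS, JUN, JUND and EGR1, overlap no other annotated gene. The others do: FOSB with ERCC1 and JUNB with HOOK2 on the opposite strand, FOSL2 with an antisense and a sense intronic transcript, and IER2, IER3 and DUSP1 with antisense transcripts. Whether counting used strand is not given in the sources used here, so reads of such partners could not be told apart. IER3 (chromosome 6, 30743199 to 30744554, minus strand), FOS (chromosome 14, 75278774 to 75282230, plus strand), JUN (chromosome 1, 58780788 to 58784327, minus strand) and EGR1 (chromosome 5, 138465490 to 138469315, plus strand) are all protein coding.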

How the data were processed

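Poly(A) RNA of 16 NOMO-1 libraries was deposited as 1 table of TPM made by the authors, 1 column per library; the submitters' processing notes name RSEM 1.2.31 and GRCh38. Aligner and annotation: not given in the sources used here. TPM keep no counts, so depth is unknown. All columns matched a sample by name. Values were taken as log2(TPM + 1) for the 14951 entries that reached 1 TPM in 3 or more libraries. Limma 3.58.1 in R 4.3.3 fitted 1 mean per group to all 16 libraries with a mean-variance trend. Tests were two-sided, adjusted by Benjamini-Hochberg over all tested genes within each of 6 contrasts, with a threshold of 0.05. The fit was tested on simulated data. Tables, motif searches and figures used Python 3.11.15, pandas 2.3.3, scipy 1.17.1 and matplotlib 3.10.9. The 10 genes and the 12 further lists were chosen with earlier results of these data known. Named list genes came from the up to 4 per list with the smallest adjusted p, and all of the AP-1 related list; likeness was computed for members changed at least 2-fold, among genes reaching 5 TPM. Not all genes selected are printed. P-values of the main fit set each difference against the spread between libraries within groups, estimated over all 5 groups and both experiments. Alternatives were a pseudocount of 0.1, no filter, median-of-ratios scaling, quantile normalization, fits on the groups compared, a replicate block and leaving out libraries.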

Additional observations from a re-analysis of the deposited data

Results flagged for a closer look

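EGR1 stood at 7.88 TPM in the DMSO library numbered 3, beside 2.76, 3.11 and 2.99 TPM in the others. The gap to the nearest library took 0.896 of the group's range on the log2 scale, above Dixon's 95% limit for 4 samples. Chance flags about 1 in 20 groups, and 5.13% of tested genes were flagged in DMSO; in 0.569% of tested genes this library was the one flagged as highest. No other of the 10 genes was flagged. The next were FOSB at 0.6, highest in the library numbered 4, and FOS at 0.596, highest in that numbered 3.

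FOSB, JUNB and IER2 passed upwards with each compound and downwards with the FTO hairpin, and the differences passed the test. FOSB's own fall with the hairpin was lost in 4 of 13 settings (limma adjusted p from 0.0584 to 0.0838). For FOSB the difference was 1.00 with CS1 and 1.81 with CS2. JUNB differed by 0.74 and 1.25 and IER2 by 0.77 and 1.06. The compound and hairpin libraries have separate controls.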

How the results depend on the processing

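Of 940 values of the 10 genes under alternative settings, 880 kept their direction and their side of the threshold, 31 no longer passed, 17 newly passed and 12 changed sign. With CS2 against DMSO 139 of 140 did so. No alternative moved the count of genes passing with CS1 or CS2 beyond 1.5 times: with 1 library left out it ranged from 6 to 8 for CS1, stayed at 10 for CS2, and lay between 7 and 9 for CS1 below CS2. The scalings also lowered these counts. JUND and IER2 missed the threshold with CS1 under median-of-ratios scaling. Under quantile normalization JUND missed it with CS1 and DUSP1 with CS2. With the hairpin, leaving out 1 library gave 3 upwards and 2 to 4 downwards, and leaving out all 3 libraries that stood apart gave 5 downwards. Scaling moved the split of all tested genes. With CS1 5605 passed higher and 2142 lower (72.4% higher), 3899 and 3974 with median-of-ratios scaling (49.5%), and 3718 and 4267 with quantile normalization (46.6%). With CS2 the share higher was 66.8%, and 51.9% and 50.2% with these scalings; the median of the 10 genes stayed above 1. For CS1 minus hairpin 2742 passed lower, and 4313 with median-of-ratios scaling. Sign changes were EGR1 with CS1 (0.22 without the DMSO library numbered 3, alone or with the others; leaving out 1 library gave -0.20 to 0.22), DUSP1 with CS1 (-0.01, quantile normalization), JUN with the hairpin (-0.12 without the shFTO library numbered 3, alone or with the others; -0.12 to 0.20 with 1 library left out), FOS for CS2 minus hairpin (-0.02, median-of-ratios scaling) and EGR1 for CS1 minus hairpin. The last was -0.02 with median-of-ratios scaling, -0.02 with the replicate block, and between -0.05 and 0.37 when single libraries were left out (-0.00, -0.01 and -0.02 among them). FTO changed to -0.02 and -0.03 with CS1 and to -0.09 and -0.11 with CS2 under the 2 scalings. SRF changed to -0.04 and -0.07 with CS2, and with CS1 to 0.00 with the replicate block and to between -0.08 and 0.02 when single libraries were left out. The cause was not tested. Deviations of same-numbered libraries correlated from -0.00925 to 0.2193 across genes, above 0 in 11 of 12 pairs and above 0.1 in 3. Between shNS and shFTO 3 of 3 libraries were closest to their own number, and 2 of 3 in each other pair of groups. Since not every pair passed 0.1, the replicate block is only an alternative; with it the counts of all tested genes were 5615 and 2219 for CS1, 7374 and 3734 for CS2, and 5111 and 3809 for the hairpin.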
